A study of Mus musculus with 25 samples.

Results

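The major urinary proteins (MUPs) are small lipocalins that mouse hepatocytes secrete in large amounts, and this account follows the transcripts of 10 of their genes in liver. The genes are Mup3, Mup20, Mup21, Mup1, Mup2, Mup7, Mup10, Mup11, Mup12 and Mup17, taken by symbol and matched to the Ensembl identifiers of the count tables. All 10 were among the 41388 genes counted, and all 10 passed the filter on low counts, which 14065 genes passed. The annotation holds 38 further genes with a Mup symbol, 11 of them protein-coding and 27 of them pseudogenes.

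MUPs fold into a barrel that holds small hydrophobic molecules, among them volatile pheromones, and they leave the body in urine. Their transcription in liver is higher in males than in females, is driven by pulsed growth hormone through its receptor GHR and the transcription factor STAT5B, and also responds to androgen, thyroid hormone and glucocorticoid. MUP20, also called darcin, is the pheromone that makes a male's scent attractive to females, and MUP1 has been studied as a circulating factor in glucose and lipid metabolism.

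The 25 libraries came from the livers of male C57B/6J mice at an age of 20 weeks. In the study wild-type (WT) mice are floxed Sirt1 littermates without Cre, SIRT1 LKO mice carry the same floxed gene and a Cre driven by the albumin promoter, and every mouse received AAV8, a virus that targets hepatocytes, with either an empty vector (EV) or NAMPT, an enzyme of NAD+ salvage. The groups were WT mice with EV on chow (chow WT EV, n = 3), and 4 groups kept on a Western diet (WD) for 12 weeks: WD WT EV (n = 6), WD WT NAMPT (n = 6), WD LKO EV (n = 5) and WD LKO NAMPT (n = 5). Groups follow the sample titles, which give NAMPT as the insert, whereas the treatment label gives SIRT1. The sources used here do not state that each library of a group is a separate mouse, so p-values measure the spread between these libraries. The study asked how NAMPT acts in liver on a Western diet and what part of this needs SIRT1.

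The libraries held between 20166175 and 32937326 counts. The whole-gene Sirt1 level did not separate the genotypes: in WD WT EV libraries it averaged 8.86 ± 0.573 CPM (counts scaled to library size after TMM normalization; SD, n = 6), and in WD LKO EV libraries 8.57 ± 1.34 (n = 5), a log2 difference of -0.07 (limma, Benjamini-Hochberg adjusted p = 0.99). A whole-gene count also holds exons outside a floxed segment, so it does not check the deletion, and LKO below means the libraries labelled so. Nampt was at 47.4 ± 6.46 CPM in WD WT EV and 59.5 ± 10.6 in WD WT NAMPT (log2 difference 0.34, adjusted p = 0.144), and at 56.1 ± 12.0 in WD LKO EV and 79.9 ± 28.4 in WD LKO NAMPT (0.41, adjusted p = 0.403). Albumin, Apob and the other hepatocyte markers summed to between 52020 and 85020 CPM in every library, and of 4 salivary gland markers Smr3a and Prol1 were at 0 counts in all 25, Amy1 was at 144.1 to 297.1 CPM and Bhlha15 reached 2.948. The fit gave low quality weights, a measure of how far a library lies from its group over all genes, to replicates 2 and 6 of WD WT NAMPT (0.401 and 0.336) and to replicate 3 of WD LKO NAMPT (0.41).

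The members lie in 1 cluster on chromosome 4 of GRCm38, all on the minus strand. Mup7 (chr4:60066469-60070475), Mup2, Mup1 (chr4:60498012-60501960), Mup10, Mup11, Mup12 and Mup17 (chr4:61591929-61595871) stand in the inner part of the cluster, and Mup20 (chr4:62050234-62054158), Mup3 (chr4:62083476-62087342) and Mup21 (chr4:62147932-62150863) stand together at its far end. The 7 inner members were near-identical: their aligned coding sequences shared between 98.4% and 99.6% of positions. Mup3 and Mup21 were 94.8% identical to each other and 82.2% to 84.8% identical to the inner members. Mup20 lay between them, with 90.1% to 91.4% identity to the inner members, 87.5% to Mup21 and 86.7% to Mup3.

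A stretch of 60 coding bases shows these 3 kinds of gene side by side. The sequences are from the GENCODE transcripts of GRCm38, and capitals mark the bases unlike those of Mup11. In Mup1, Mup2 and Mup12 the stretch had 0 bases unlike Mup11, in Mup10 it had 1, in Mup7 and in Mup17 it had 2, in Mup20 it had 11, in Mup21 it had 19 and in Mup3 it had 21.
Mup11: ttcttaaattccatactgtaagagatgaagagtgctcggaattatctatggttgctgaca
Mup10: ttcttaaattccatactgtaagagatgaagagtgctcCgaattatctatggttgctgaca
Mup7: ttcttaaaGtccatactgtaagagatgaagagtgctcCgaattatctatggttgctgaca
Mup20: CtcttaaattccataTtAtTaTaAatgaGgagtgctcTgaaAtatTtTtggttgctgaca
Mup21: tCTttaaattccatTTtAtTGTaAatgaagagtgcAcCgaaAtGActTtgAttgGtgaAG
Mup3: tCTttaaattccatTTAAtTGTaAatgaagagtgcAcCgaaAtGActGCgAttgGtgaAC

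Reads were 50 bases long and, by the study's methods, only reads aligned to 1 place were counted, so the likeness of the genes bears on what was counted. The window below, bases 488 to 537 of the Mup11 coding sequence, was held by 17 genes, 7 of them the inner members, so its letters alone do not tell these transcripts apart.
Mup11: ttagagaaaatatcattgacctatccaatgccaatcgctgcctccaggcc

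Of all 50-base windows in the transcripts of a member, the share found in no other gene was 86.7% for Mup3, 80.7% for Mup21 and 49.5% for Mup20, whose main partner was the pseudogene Mup-ps19 with 422 shared windows. It was 38.4% for Mup1, 23.5% for Mup10, 22.2% for Mup11, 21.9% for Mup17, 21.8% for Mup2, 14.6% for Mup12 and 13.3% for Mup7. Most of the sequence of Mup3 and Mup21 was thus their own, and a smaller part of that of the inner members. Mup15, which is not a member, had 0% of windows of its own in these transcripts and was still counted at up to 2454 CPM, so windows in transcripts do not fully describe which reads were assigned. The value of any single inner member is therefore uncertain.

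**Figure D1:**
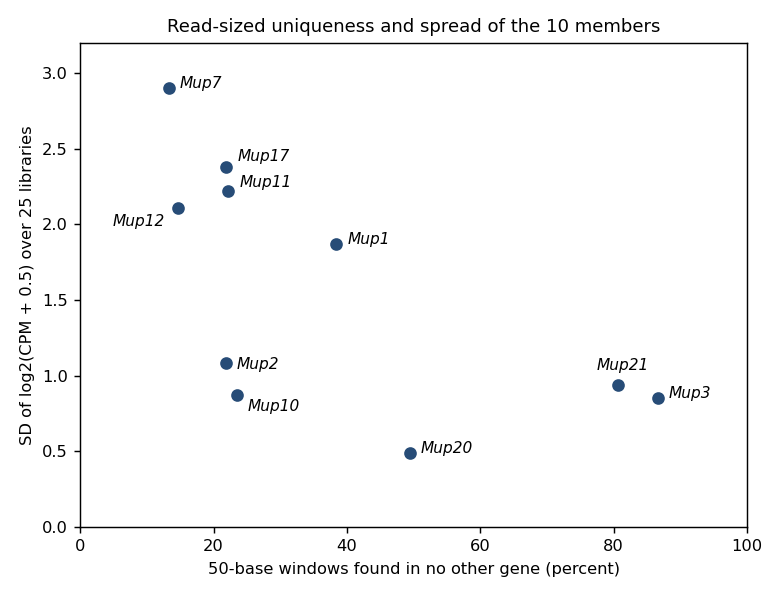
Share of 50-base windows of each member found in no other gene (x axis, percent) against the SD of its log2(CPM + 0.5) over the 25 libraries (y axis), 1 point per member. The inner members Mup7, Mup17, Mup11, Mup12 and Mup1 had SDs between 1.87 and 2.90. The inner members Mup10 and Mup2, with 23.5% and 21.8% of their windows unshared, had SDs of 0.87 and 1.08, near those of Mup3 (0.85) and Mup21 (0.94). Mup20 had the lowest SD, 0.49, with 49.5% of its windows unshared.

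Per length, Mup3 had the highest mean level of the members in WD WT EV. It was 5432 ± 2238 RPKM (TMM-normalized CPM divided by the exon length in kilobases; SD, n = 6), followed by Mup20 at 2378 ± 512, Mup7 at 921 ± 873, Mup17 at 554 ± 489 and Mup11 at 297 ± 241. Mup10 stood at 201 ± 86.1 RPKM, Mup21 at 158 ± 80.9, Mup12 at 57.9 ± 43.0, Mup1 at 10.9 ± 9.54 and Mup2 at 8.08 ± 4.55. From Mup7 to Mup21 neighbours in this order differed by less than the larger of their SDs. When the length was replaced by the number of unshared windows, Mup7 stood at 6605 CPM per kilobase, above Mup3 at 5999 and Mup20 at 5074, so the order of the most abundant members depends on how shared sequence is treated.

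Together the members took 0.906% ± 0.49 of all gene counts (SD over 25 libraries), with a lowest library of 0.398% and a highest of 2.62%. The group means were 1.15% ± 0.55 in chow WT EV, 0.996% ± 0.419 in WD WT EV, 0.973% ± 0.83 in WD WT NAMPT, 0.689% ± 0.123 in WD LKO EV and 0.79% ± 0.242 in WD LKO NAMPT. The ranges of all groups overlapped. No test was made of the share. Libraries within a group differed by up to 5.89 times, in WD WT NAMPT, where 5 libraries lay between 0.445% and 0.885% and replicate 6 at 2.62%. In bulk liver a lower share can come from fewer hepatocytes or from less RNA per hepatocyte, and these cannot be told apart.

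The makeup of this pool shifted from library to library. Mup3 made up between 32.2% and 76% of the members' counts, Mup20 between 15.3% and 63.4%, Mup21 between 0.622% and 2.19%, and the 7 inner members together between 3.0% and 37.6%. The inner members took 25.8% and 27.2% of the pool in replicates 2 and 1 of chow WT EV but 4.06% in replicate 3. They took 5.38% and 5.95% in replicates 1 and 4 of WD WT EV and between 15.3% and 32.8% in the other 4 libraries of that group. In WD LKO EV the share was between 5.02% and 11% in all 5 libraries.

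**Figure D2:**
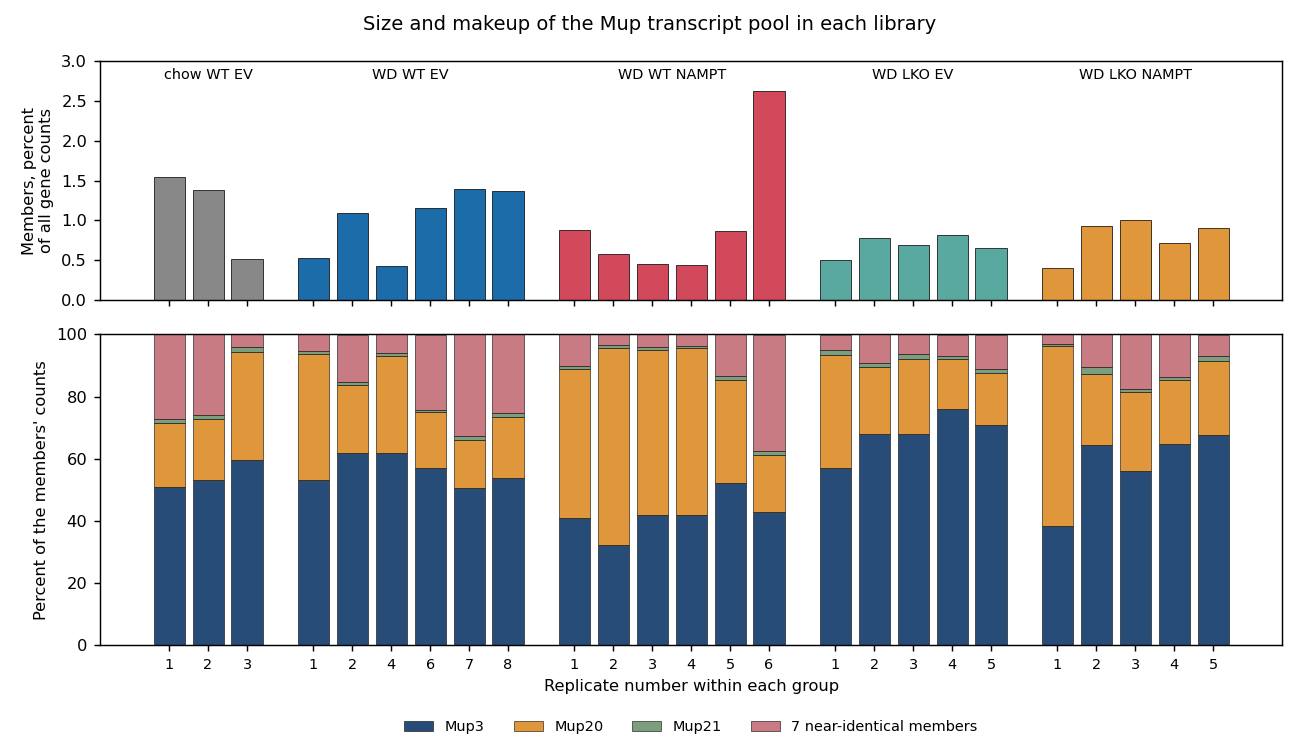
Upper panel: counts of the 10 members as a percent of all gene counts, 1 bar per library, coloured by group. Lower panel: percent of those counts from Mup3, Mup20, Mup21 and the 7 near-identical members; replicate 6 of WD WT NAMPT has the tallest bar, 2.62%, and the largest share of near-identical members, 37.6%.

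Mup3 values spread widely within groups. Chow WT EV had 7820, 7477 and 3162 CPM, and WD WT EV had a lowest value of 2626, a median of 7240 and a highest of 7485. WD WT NAMPT had a lowest value of 1431, a median of 2518 and a highest of 12150. WD LKO EV had 2784, 5581, 4582, 6745 and 4784 CPM, and WD LKO NAMPT had 1431, 6049, 6332, 4593 and 6436. Replicate 3 of chow WT EV, replicates 1 and 4 of WD WT EV and replicate 1 in both LKO groups lay well below the rest of their groups, in WD WT NAMPT replicate 6 lay well above, and every pair of groups compared overlapped.

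Mup20 varied least of all members, 4.63-fold over the 25 libraries. Chow WT EV had 3137, 2749 and 1843 CPM, WD WT EV had a lowest value of 1327, a median of 2274 and a highest of 2675, and WD WT NAMPT had a lowest value of 2185, a median of 2814 and a highest of 5276. WD LKO EV had 1786, 1752, 1626, 1418 and 1139 CPM, and WD LKO NAMPT had 2178, 2162, 2881, 1471 and 2245. By mean the order was WD WT NAMPT (3201 ± 1162 CPM), chow WT EV (2576 ± 664), WD WT EV (2207 ± 475), WD LKO NAMPT (2187 ± 500) and WD LKO EV (1544 ± 268). Neighbours in this order overlapped.

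Mup7, an inner member, ran from 1.92 to 3892 CPM, 2030-fold. Chow WT EV had 1809, 1471 and 22.96 CPM, and WD WT EV had a lowest value of 21.6, a median of 867 and a highest of 2270. WD WT NAMPT had a lowest value of 3.86, a median of 115 and a highest of 3892. WD LKO EV had 32.7, 88.1, 57.7, 80.2 and 169 CPM, and WD LKO NAMPT had 1.92, 173.8, 265.3, 274.3 and 53.06. Replicate 3 of chow WT EV, replicates 1 and 4 of WD WT EV and replicate 1 of both LKO groups were again the lowest of their groups, and no library of WD LKO EV reached the 4 higher libraries of WD WT EV.

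The inner members differed in how far they ranged. Mup17 ranged 3060-fold over the libraries, Mup1 509-fold, Mup11 489-fold and Mup12 459-fold. Mup2 and Mup10, as close in sequence, ranged only 32.4-fold and 11.6-fold, and Mup21 ranged 14.3-fold. Mup17 and Mup11 differed in the order of their means in chow WT EV and WD WT EV. Mup17 was at 201, 182 and 1.10 CPM on chow, with a mean of 128 ± 110, and at 513 ± 453 in WD WT EV. Mup11 went from 1015 ± 859 to 468 ± 380. A lower mean on chow was not particular to Mup17. Of the Mup genes outside the members, Mup18 (10.7 and 31.2 CPM) and Mup9 (3.19 and 20.3) also had it, while Mup16 (89.0 and 58.7) did not.

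**Figure D3:**
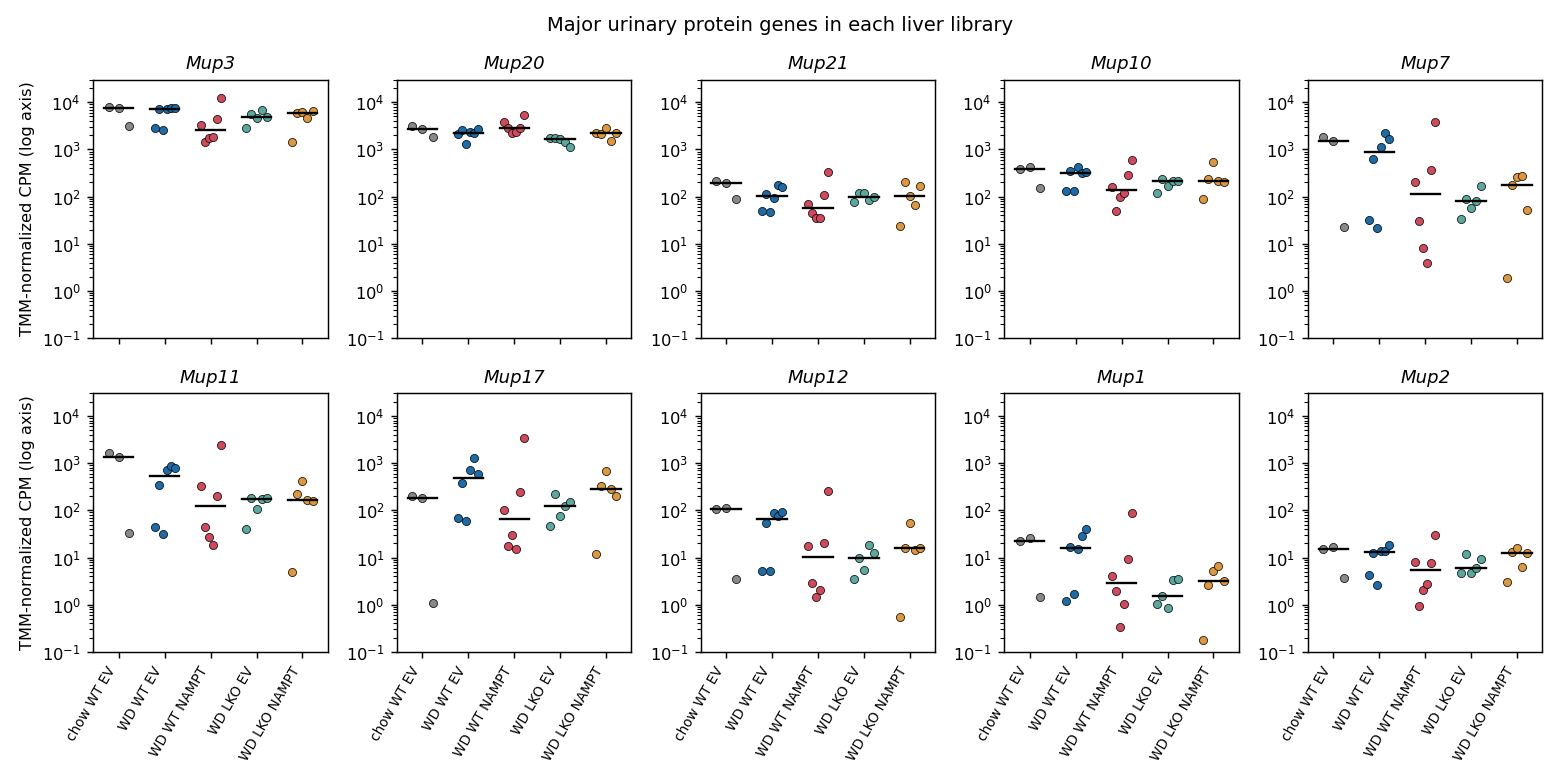
TMM-normalized CPM of each member (log axis) in the 25 libraries, by group; each point is 1 library and each line the group median. Mup3 and Mup20 sit near the top and range 8.49-fold and 4.63-fold, and Mup7 spreads from 1.92 to 3892 CPM.

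The members varied together across libraries, with Mup20 standing apart. Pearson's r of log2(CPM + 0.5) over the 25 libraries was between 0.77 and 0.97 for pairs of inner members, and at least 0.86 once group means were subtracted. Mup3 followed Mup21 (r = 0.91) and Mup2 (r = 0.93) as closely. Mup20 had r between 0.24 and 0.53 with the other members, and between 0.59 and 0.71 within groups. These points share library, depth and, for inner members, sequence, so r is a description.

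Sequence around the start site set Mup3 and Mup21 apart from the inner members. RefSeq promoters of GRCm38.p6 were matched for 7 members, Mup2, Mup3, Mup7, Mup10, Mup11, Mup17 and Mup21, and stretches ending in a shared motif are shown because these genes varied together. RefSeq and GENCODE place the starts differently, and in the genes printed the motif lies inside the GENCODE gene, so its distance from the start of transcription is not given. All are printed as read on the minus strand. The letters TATATAAG, in capitals, were found in 6 of the 7, all but Mup7, and in 331 of 32817 promoters of the same length when both strands were read (1.0%).
Mup11 (chr4:60662390-60662469): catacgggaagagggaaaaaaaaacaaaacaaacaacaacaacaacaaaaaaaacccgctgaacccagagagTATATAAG
Mup17 (chr4:61595850-61595929): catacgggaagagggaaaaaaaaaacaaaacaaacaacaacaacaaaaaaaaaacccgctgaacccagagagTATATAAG
Mup10 (chr4:60582178-60582257): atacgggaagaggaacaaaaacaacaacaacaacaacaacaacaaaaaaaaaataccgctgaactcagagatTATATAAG
Mup3 (chr4:62087321-62087400): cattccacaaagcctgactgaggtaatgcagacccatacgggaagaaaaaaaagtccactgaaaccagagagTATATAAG
Mup21 (chr4:62150842-62150921): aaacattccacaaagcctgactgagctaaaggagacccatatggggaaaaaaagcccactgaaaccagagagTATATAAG

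Over these stretches Mup11 and Mup17 were 97.5% identical, Mup3 and Mup21 were 85.5% identical, and either of the latter shared between 52.5% and 63.0% with an inner member. The stretch of Mup2 was 92.8% identical to that of Mup11. The letters TTCNNNGAA, the core bound by STAT factors, were on either strand of 8.3% of all promoters and the TATA box letters TATAAA in 13.6%, and neither was in the windows of the 7 members, from 250 bases before to 50 after the start. TATATAAG does not contain TATAAA, and each was counted on its own.

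With the NAMPT vector in WT liver, Mup3 was called lower and no other member was called, and that call was lost under most other settings. Mup3 had a fitted log2 difference of -1.16 (SE 0.38, limma adjusted p = 0.0414). Its unweighted means were 5801 ± 2390 CPM in WD WT EV and 4123 ± 4091 in WD WT NAMPT. The fit weights the libraries and works on log counts, so -1.16 is not the change between these means, which is smaller. This 1 of 10 members compares with 13.4% of all genes called in either direction and 5.77% called lower, so the count is near the background. Of the members, 9 had negative and 1 positive fitted log2 differences, with a median of -1.82 beside 0.004 over all genes, and 8 of 10 had an unadjusted p under 0.05, as did 30.3% of all genes.

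Mup7, Mup12, Mup1, Mup17 and Mup11 had the largest fitted differences of the members and the largest errors. Mup7 had a log2 difference of -3.88 (SE 1.37, adjusted p = 0.0601), Mup12 -2.99 (SE 1.20, adjusted p = 0.0936) and Mup1 -2.69 (SE 1.22, adjusted p = 0.135). Mup17 had -2.68 (adjusted p = 0.0996), Mup11 -2.15 (adjusted p = 0.151), Mup2 -1.48 (adjusted p = 0.093), Mup10 -0.92 (adjusted p = 0.0944) and Mup21 -0.86 (adjusted p = 0.185). Mup20 had 0.26 (SE 0.19, adjusted p = 0.361), with means of 2207 ± 475 and 3201 ± 1162 CPM. None of the 10 members had groups that did not overlap, which 0.96% of all genes had.

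The calls varied with the weights, the tool and the libraries used. Replicate 6 of WD WT NAMPT had the highest value of all 25 libraries for Mup3, Mup20, Mup21, Mup10, Mup7, Mup11, Mup17, Mup12, Mup1 and Mup2 and the lowest quality weight, 0.336. Without it Mup3 had -1.37 (adjusted p = 0.00709) and 5 members were called, while the genes called over the whole table went from 1890 to 2844. With equal weights for all libraries Mup3 had -0.75 (adjusted p = 0.324) and no member was called, beside 192 of all genes. The quasi-likelihood test of edgeR gave -0.49 (adjusted p = 0.547) and DESeq2 -0.49 (adjusted p = 0.511), also with no member called, beside 428 and 1194 of all genes. Mup11 and Mup17 turned positive in both. The unweighted means of Mup11 and Mup17 were likewise higher in WD WT NAMPT (513 ± 961 and 630 ± 1348 CPM) than in WD WT EV (468 ± 380 and 513 ± 453), but replicate 6, at 2459 and 3377 CPM, set this order. The medians were lower with NAMPT, 124 against 526 CPM for Mup11 and 64.8 against 484 for Mup17. Leaving out replicates 2, 6, 7 or 8 of WD WT EV or replicates 1, 2, 3 or 4 of WD WT NAMPT also ended the Mup3 call, with values from -0.92 to -1.17. Without replicate 1 or 4 of WD WT EV there were 6 and 5 members called beside 2187 and 2455 of all genes, and without replicate 5 of WD WT NAMPT there were 4 beside 2803.

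The balance of Mup20 to Mup3 needs no scaling between libraries. Per kilobase it was 0.347, 0.365, 0.405, 0.416, 0.582 and 0.876 in WD WT EV. In WD WT NAMPT it was 0.5, 0.736, 1.35, 1.45, 1.48 and 2.27. How these ratios compare between libraries does not depend on the lengths used, whereas which of the genes is higher within a library does. The ratio was 0.242 to 0.738 in WD LKO EV, and in WD LKO NAMPT it was 0.369 to 0.524 in 4 libraries and 1.75 in replicate 1. It was chosen after the values were seen and is given without a test.

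**Figure D4:**
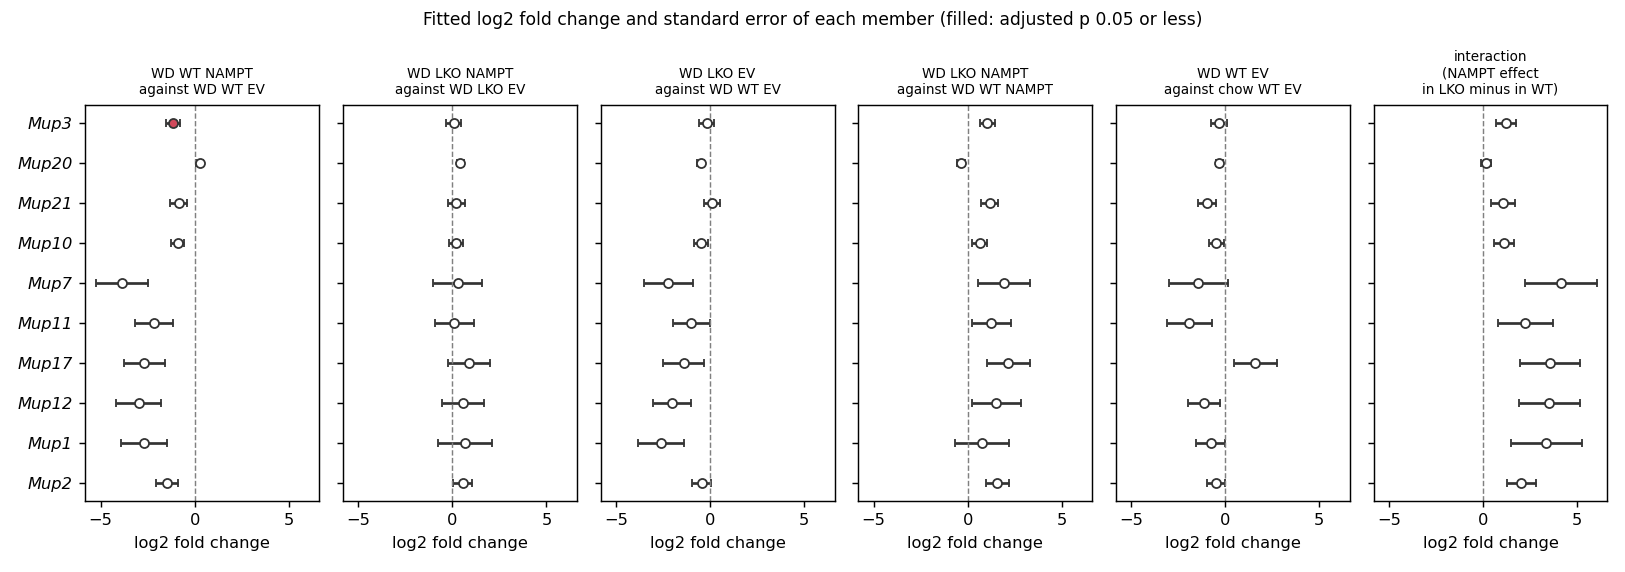
Fitted log2 fold change of each member with its standard error in the 5 comparisons and the interaction; a filled point marks an adjusted p of 0.05 or less. Mup3 in WD WT NAMPT against WD WT EV is the only filled point, and the errors of Mup7, Mup11, Mup17, Mup12 and Mup1 are the widest.

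In LKO liver the NAMPT vector moved no member past the test. All 10 members had positive log2 differences, from 0.06 for Mup3 (4895 ± 1454 CPM in WD LKO EV and 4968 ± 2112 in WD LKO NAMPT) to 0.88 for Mup17, and the median was 0.34. Mup20 had 0.42 (SE 0.19, unadjusted p = 0.0373, adjusted p = 0.498) and was the 1 member with an unadjusted p under 0.05, as 9.63% of all genes had. In limma 0 of 10 were called, as in edgeR and DESeq2, and 0.00711% of all genes were called. None of the members had separated groups, as 1.15% of all genes did. Mup3, Mup7, Mup11 and Mup21 turned negative under at least 1 other setting, so no direction is read from them.

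The interaction compared the NAMPT effect in LKO with that in WT. All 10 members had positive values, with a median of 2.14: Mup7 had 4.14 (SE 1.91, adjusted p = 0.213), Mup2 2.03 (SE 0.78, adjusted p = 0.147), Mup3 1.22 (SE 0.55, adjusted p = 0.204) and Mup20 0.16 (SE 0.27, adjusted p = 0.765). In limma 0 of 10 passed the test, as in edgeR and DESeq2, and 6 had an unadjusted p under 0.05. Over all genes 0.00711% were called and 21.2% had an unadjusted p under 0.05. A difference in the NAMPT effect between genotypes was thus not shown for any member.

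With EV, no member was called between LKO and WT. Mup20 had a log2 difference of -0.51 (SE 0.18, unadjusted p = 0.00882, adjusted p = 0.642), with the 5 LKO libraries from 1139 to 1786 CPM and the 6 WT libraries from 1327 to 2675. Mup1 had -2.62 (SE 1.21, adjusted p = 0.767), Mup7 -2.22 (SE 1.31, adjusted p = 0.871) and Mup3 -0.19 (SE 0.38, adjusted p = 0.991). In limma 0 of 10 were called, 2 had an unadjusted p under 0.05 as did 6.33% of all genes, edgeR and DESeq2 called 0, and 0.00711% of all genes were called. The groups overlapped for all members, while 0.59% of all genes had separated groups.

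With NAMPT, 9 of 10 members had higher fitted levels in LKO than in WT, none was called, and Mup1, Mup7, Mup11, Mup12 and Mup17 had lower ones by edgeR and DESeq2. Mup3 had 1.03 (SE 0.40, adjusted p = 0.0949), Mup2 1.58 (SE 0.60, adjusted p = 0.0887), Mup21 1.16 (SE 0.47, adjusted p = 0.106) and Mup17 2.15 (SE 1.15, adjusted p = 0.22), while Mup20 had -0.35 (SE 0.20, adjusted p = 0.254). In limma 0 of 10 were called against 7.96% of all genes, 3 had an unadjusted p under 0.05 against 28.6% of all genes, and edgeR and DESeq2 called 0. Without replicate 6 of WD WT NAMPT or without replicate 1 of WD LKO NAMPT, Mup3, Mup21 and Mup2 were called higher, and without replicate 5 of WD WT NAMPT, Mup3 and Mup21 were. Over all genes 2290, 2266 and 1954 were called in these fits, beside 1120 with all libraries. No member had separated groups, against 1.39% of all genes. This comparison shares its WT libraries with the first, so both carry the same spread.

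The Western diet alone called no member in WT mice with EV. Mup21 had the lowest p, with a fitted log2 difference of -0.96 (SE 0.47, adjusted p = 0.145). Its unweighted means were 166 ± 68.6 CPM in chow WT EV and 107 ± 54.7 in WD WT EV. Mup3 had -0.34 (SE 0.41, adjusted p = 0.594), Mup20 -0.33 (SE 0.19, adjusted p = 0.239), Mup11 -1.91 (SE 1.19, adjusted p = 0.26) and Mup17 1.58 (SE 1.14, adjusted p = 0.334). In limma 0 of 10 were called and 0 had an unadjusted p under 0.05, whereas 22% of all genes were called and 35.1% had an unadjusted p under 0.05, and edgeR and DESeq2 called 0 members. Groups that did not overlap were found for none of the members and for 16.1% of all genes. Of the 3 chow libraries replicate 3 stood apart from the other two in every inner member. Without chow replicate 1 the log2 differences were 0.93 for Mup7, 0.21 for Mup11 and 0.16 for Mup3, and without chow replicate 2 they were 0.77, 0.08 and 0.12. Mup17 had 4.59 without chow replicate 1 and 0.66 without chow replicate 3. No direction is read from Mup7, Mup11 or Mup3.

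Among the 22 further Mup genes that passed the filter, 1 was called in each of 3 comparisons, in which 13.4%, 7.96% and 22% of all genes were called. The pseudogene Mup-ps16 was lower in WD WT NAMPT than in WD WT EV (log2 difference -1.78, SE 0.51, adjusted p = 0.0258) at a mean of 0.904 and 2.23 CPM. Mup-ps19, which shares 89.8% of its windows with Mup20, was lower in WD LKO NAMPT than in WD WT NAMPT (-0.83, SE 0.21, adjusted p = 0.0233), at 122 and 185 CPM. Mup-ps14 was higher in WD WT EV than in chow WT EV (2.5, SE 0.75, adjusted p = 0.0195), at 1.89 and 0.339 CPM. Of the others Mup15 reached 2454 CPM, Mup14 647, Mup16 432, Mup18 313 and Mup9 232, each in a library of WD WT NAMPT, and Mup5, Mup8, Mup13, Mup19, Mup4, Mup6, Mup-ps7, Mup-ps12, Mup-ps13, Mup-ps17, Mup-ps18, Mup-ps20, Mup-ps21 and Mup-ps22 stayed at or below 27.96 CPM.

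Growth hormone signalling, the main known drive of Mup transcription, was followed in 22 genes, all of which passed the filter. With NAMPT in WT liver 0 of 22 were called, with a median log2 difference of -0.11: Stat5b had -0.23 (SE 0.08, adjusted p = 0.0525), the receptor Ghr -0.37 (SE 0.15, adjusted p = 0.0946), the thyroid hormone receptor Thrb -0.26 (SE 0.12, adjusted p = 0.133), the growth hormone target Igf1 0.10 (adjusted p = 0.68) and the feedback inhibitor Socs2 0.52 (adjusted p = 0.461). The Mup regulators Zhx2 and Zbtb20 had 0.08 (adjusted p = 0.47) and 0.01 (adjusted p = 0.973). By limma 0 of 22 were also called in both comparisons of genotype, with NAMPT in LKO liver and in the interaction. With the Western diet 5 of 22 were called lower and 0 higher. Over all genes 22% were called in either direction, and the share called lower alone is not given here. The lower ones included Zbtb20 (-0.48, SE 0.10, adjusted p = 0.00174), Stat5b (-0.33, SE 0.08, adjusted p = 0.00638), Igfals, which carries IGF1 in blood (-0.88, SE 0.25, adjusted p = 0.0123), and Igf1 (-0.56, SE 0.16, adjusted p = 0.013).

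Other sex-biased genes varied with the members from library to library. Over the 25 libraries r with the summed members was positive for all 17 male-biased genes that passed the filter, with a median of 0.67, beside 0.03 over all 12534 genes compared. It was 0.89 for the transporter Slco1a1, 0.85 for Cyp2d9, 0.85 for the oxysterol hydroxylase Cyp7b1 and 0.84 for the steroid enzyme Hsd3b5. Of 15 female-biased genes 12 had negative r, with a median of -0.32, among them Abcd2 at -0.73 and Cyp2a4 at -0.70. Of the 22 genes of the growth hormone list 15 had positive and 7 negative r, with a median of 0.29. The receptor Ghr had r = 0.83, Thrb 0.77, Nr3c1, the glucocorticoid receptor, 0.67, Zbtb20 0.64, Igf1 0.58, Stat5b 0.07, Zhx2 -0.04 and Socs2 -0.21.

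Sex-biased genes were tested by group as well. With NAMPT in WT liver, where 13.4% of all genes were called and 5.77% were lower, 2 of 17 male-biased genes were lower, the fatty acid elongase Elovl3 (-1.66, SE 0.42, adjusted p = 0.0155) and Susd4 (-1.81, SE 0.55, adjusted p = 0.0321), and 1 was higher, the complement gene C8a (0.48, SE 0.16, adjusted p = 0.0422), while 0 of 15 female-biased genes were called. With the Western diet, which called 22% of all genes, 9 of 17 male-biased genes were lower, led by Gstp1 (-1.46, adjusted p = 3.54e-05), C8a (-0.80, adjusted p = 0.00118) and Serpina1e (-4.25, adjusted p = 0.00142), and of 15 female-biased genes 3 were higher and 3 lower. The lower ones were the cytochrome P450 genes Cyp3a16 (-2.13, adjusted p = 1.15e-07), Cyp3a44 (-2.17, adjusted p = 3.84e-07) and Cyp3a41a (-2.24, adjusted p = 5.63e-07). In WD LKO NAMPT against WD WT NAMPT, where 7.96% of all genes were called, Gstp1 (-1.12, adjusted p = 0.0107) and Serpina1e (-3.76, adjusted p = 0.0145) were lower with C6 at -0.70 (adjusted p = 0.0555), and the female-biased Cyp4a14 (2.14, adjusted p = 0.0336) and Cyp2b9 (4.07, adjusted p = 0.0414) were higher with Cyp3a44 at -0.88 (adjusted p = 0.0627).

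The 5 genes most like the summed members over the 25 libraries, outside the Mup family, were Akr1c6 (r = 0.93, Spearman's rho 0.94), Ugt2b1 (0.92, rho 0.93), Hsd17b2 (0.90, rho 0.92), Slco1a1 (0.89, rho 0.95) and Sult2a8 (0.88, rho 0.92). Akr1c6 and Hsd17b2 encode hydroxysteroid dehydrogenases, Ugt2b1 a glucuronosyltransferase and Sult2a8 a sulfotransferase. Akr1c6 ranged from 428 to 1207 CPM, Ugt2b1 from 179 to 1206 and Slco1a1 from 17.1 to 640. The 5 most opposed were the lipid droplet protein Hsd17b13 (r = -0.91), Gusb (-0.88), Gm10639 (-0.88), the mitochondrial isocitrate dehydrogenase Idh2 (-0.87) and the collagen Col6a2 (-0.87). After group means were subtracted r was between 0.91 and 0.94 for the first 5 and between -0.93 and -0.89 for the second. Without replicate 1 of WD LKO NAMPT and replicate 6 of WD WT NAMPT, the libraries with the most extreme sums, it was between 0.87 and 0.92 and between -0.92 and -0.80. The libraries share scaling and tissue makeup, and no test was made of genes ranked by r.

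Summed markers of other liver cell types varied opposite to the members. Summed leukocyte markers had r = -0.71 with the summed members (-0.80 within groups), stellate cell markers -0.72 (-0.76), macrophage markers -0.59 (-0.67), cholangiocyte markers -0.51 (-0.49) and endothelial markers -0.49 (-0.47), or -0.30 without the 2 farthest libraries. Among the 6 endothelial genes Clec4g (r = 0.58) and Kdr (0.18) were positive. Hepatocyte markers had r = 0.26, the TMM factor -0.59, total counts -0.26 and the quality weight -0.03. With Mup20 alone r was 0.08 for leukocyte, -0.03 for stellate cell, 0.13 for macrophage, -0.21 for cholangiocyte and -0.39 for endothelial markers. The salivary gland list, of which Amy1 and Bhlha15 passed the filter, had r = 0.59. Amy1 alone had the same r of 0.59, and Bhlha15, at a median of 0.32 CPM, had r = -0.24.

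Some leukocyte, stellate cell and macrophage markers were called higher in the comparison in which Mup3 was called, while their summed ranges overlapped. These calls come from the same weighted fit and were not examined under the other settings. Cholangiocyte and endothelial markers showed no common direction. Summed leukocyte markers ran from 14.5 to 31.8 CPM in WD WT EV and from 13.4 to 77.9 in WD WT NAMPT, with 3 of 6 detected genes called higher, Itgam (1.87, adjusted p = 0.0122), Ptprc (0.94, adjusted p = 0.0158) and S100a9 (1.57, adjusted p = 0.0319), and Ly6g was at 0 in WD WT EV. Stellate cell markers ran from 291 to 484 CPM and from 296 to 732, with 4 of 8 called higher, led by Pdgfrb (0.57, adjusted p = 0.0128), Des (0.66, adjusted p = 0.0151) and Col3a1 (1.18, adjusted p = 0.0233). Macrophage markers ran from 307 to 444 and from 289 to 812, with 5 of 8 called higher, led by Csf1r (0.64, adjusted p = 0.00878), Cd68 (1.0, adjusted p = 0.0125) and Adgre1 (0.91, adjusted p = 0.0149). Of 7 hepatocyte markers 1 was called lower, Asgr1 (-0.33, adjusted p = 0.0259). By limma 0 of 5 cholangiocyte markers were called, and of 6 endothelial markers 1 was higher and 1 lower, with sums from 278.2 to 329.6 and from 270.1 to 329.6 CPM. Over all genes 13.4% were called in this comparison. Replicate 6 of WD WT NAMPT, highest for the members, had the lowest leukocyte sum of all libraries, 13.4 CPM. The part of these cells in the Mup differences was not tested.

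**Figure D5:**
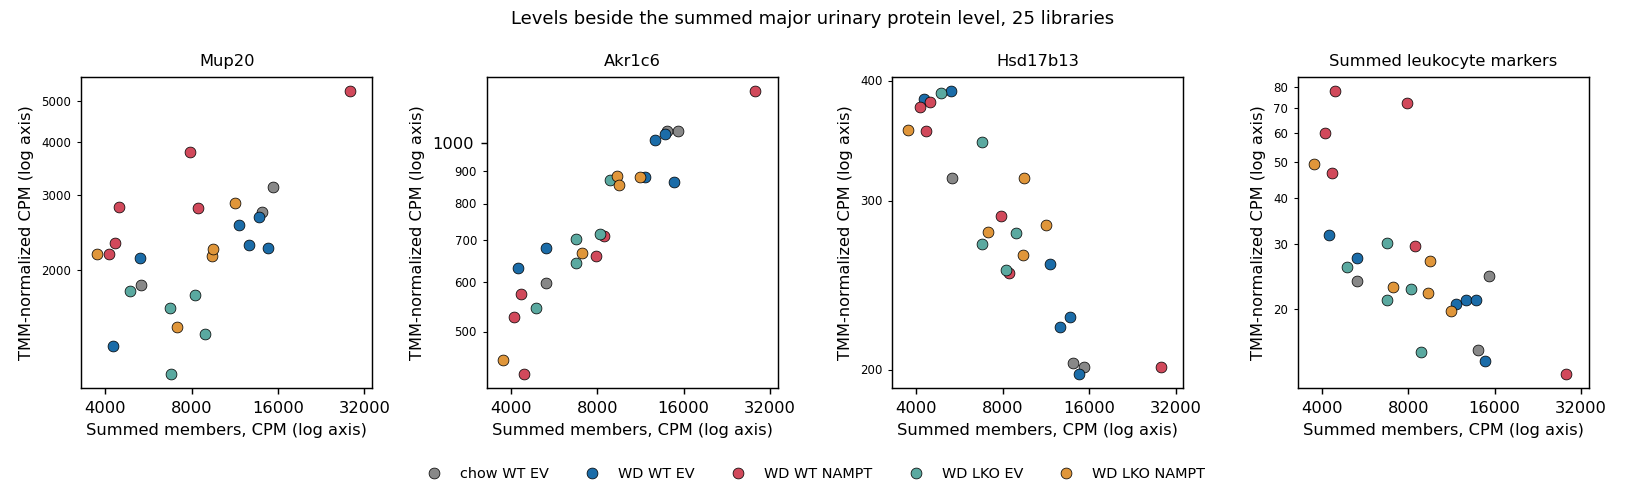
Levels of Mup20, Akr1c6, Hsd17b13 and the summed leukocyte markers (y axes, CPM, log) against the summed CPM of the 10 members (x axes, log; the sum holds Mup20), 1 point per library and colour per group. Akr1c6 rises with the sum (r = 0.93), Hsd17b13 and the leukocyte markers fall (r = -0.91 and -0.71), and WD WT NAMPT replicates 1 to 4 lie above all WD WT EV and WD LKO EV libraries for leukocyte markers.

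Secreted liver proteins and other lipocalins served as a comparison. With NAMPT in WT liver, where 13.4% of all genes were called, 3 of 19 secreted proteins were called: Hpx, which binds heme, was higher (0.78, SE 0.19, adjusted p = 0.0137), and Apoa2 (-0.57, SE 0.14, adjusted p = 0.014) and Apoc3 (-0.33, SE 0.10, adjusted p = 0.034) were lower. Apoa2 was higher in WD LKO NAMPT than in WD WT NAMPT (0.57, SE 0.15, adjusted p = 0.0275). Of 10 other lipocalins the retinol carrier Rbp4 was lower (-0.39, SE 0.12, adjusted p = 0.0285), and the acute phase proteins Orm1 (0.26, adjusted p = 0.0418) and Orm2 (1.07, adjusted p = 0.0482) were higher. With the diet, where 22% of all genes were called, 2 lipocalins were higher and 3 lower, led by Apom (-1.05, adjusted p = 2.35e-05), Orm3 (2.69, adjusted p = 0.00106) and Ptgds (-3.10, adjusted p = 0.00201), and 1 secreted protein was higher and 6 lower, led by Apoc3 (0.40, adjusted p = 0.00825), Serpina1a (-0.68, adjusted p = 0.0157) and Ahsg (-0.47, adjusted p = 0.0197). The median r with the summed members was 0.37 for secreted proteins and 0.08 for other lipocalins.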

How the data were processed

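Poly-A selected liver RNA was sequenced in 25 libraries as single reads of 50 bases, and the sources used here do not state that each library is a separate mouse. The deposited tables hold raw counts per Ensembl gene, with CPM and RPKM that the authors computed from them. Per the labels' processing notes, tools included STAR 2.5.1a and featureCounts 1.4.6-p5 on GRCm38, and the study's methods state uniquely aligned, unambiguous reads. The strand setting is not given in the sources used here. CPM and RPKM were recomputed from the counts, and only counts were analysed.

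Groups came from the sample titles. Genes above 1 CPM in at least 2 libraries were kept, 4 ribosomal RNA genes were left out, and 14065 genes were fitted with TMM factors (edgeR 4.0.16) and voomWithQualityWeights (limma 3.58.1, R 4.3.3), 1 mean per group, all libraries and no covariates. P-values were adjusted over all genes by the Benjamini-Hochberg method, and a gene was called at 0.05 or less. The fit was checked on simulated counts. CPM in the text is TMM-normalized with the SD between libraries, and log2 levels used a pseudocount of 0.5. Pairs of libraries of 1 group differed by more than counting noise.

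All 10 members and the Mup genes passing the filter are named, and the fixed rule also named, per gene list and comparison, the 3 genes of lowest adjusted p, with Ghr, Stat5b, Zhx2, Zbtb20, Igf1 and Socs2 in every comparison. For brevity the text departs from it where a list had no or few calls. Genes of like pattern were the 5 with the highest and the 5 with the lowest r, where average log2 CPM was 0 or more. Sex-biased genes, Thrb and Nr3c1 named for r alone, and the ratio of Mup20 to Mup3, were chosen after their values were seen. Members and lists were chosen with earlier results of these data known. Alternatives were edgeR's quasi-likelihood test, DESeq2 1.42.0, equal weights, other size factors, no filter, fewer groups, a replicate block and leaving out libraries. Windows of 50 bases were searched in 141767 GENCODE transcripts. Identity was computed on coding sequences, since protein sequences were not used here.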

Additional observations from a re-analysis of the deposited data

Results flagged for a closer look

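Replicate 6 of WD WT NAMPT lay far above the other 5 libraries of its group for 8 of the 10 members, by the gap to the next library as a share of the group's range. Mup3 reached 12150 CPM beside 4386 in the next library (share 0.724), Mup7 3892 beside 360.3 (0.908), Mup17 3377 beside 239.9 (0.933), Mup11 2459 beside 327.1 (0.873) and Mup21 332.1 beside 109.7 (0.747). Mup12 reached 256.0 CPM beside 20.47 (0.925), Mup1 88.83 beside 9.135 (0.901) and Mup2 30.6 beside 7.867 (0.767). In all 40 groups of values were compared in this way, and chance gives about 5%; the 8 values come from 1 library and are not independent. The same library had the lowest leukocyte marker sum, 13.36 CPM, and a quality weight of 0.336, and their part in its Mup levels was not tested.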

How the results depend on the processing

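Over 10 settings that left out no single replicate, 529 of 596 member values kept direction and side of the threshold, 52 changed sign and none of those was called. Calls in WD WT NAMPT against WD WT EV were 0 with edgeR's quasi-likelihood test, DESeq2, equal weights, library size alone, no filter or only the groups compared, beside 428, 1194, 192, 2281, 524 and 804 of all genes, against 1890 in the reported fit. They were 2 (Mup3 and Mup7), beside 1781, without the libraries of low quality weight, a setting chosen after seeing the data. Leaving out single replicates gave 0 to 6 calls there, as the genes called over the whole table went from 132 to 2844, and 0 to 3 in WD LKO NAMPT against WD WT NAMPT, with 0 to 2290 over the whole table. Median-of-ratios factors and leaving Mup genes out of the normalization changed no sign and no call.

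The signs changed as follows, on the log2 scale. With edgeR, WD WT NAMPT against WD WT EV gave Mup11 0.13 and Mup17 0.29, WD LKO EV against WD WT EV gave Mup21 -0.11, WD LKO NAMPT against WD WT NAMPT gave Mup1 -2.28, Mup7 -2.29, Mup11 -1.42, Mup12 -1.31 and Mup17 -1.04, the diet gave Mup1 0.06 and the interaction Mup20 -0.03. DESeq2 gave, in the same order, Mup1 0.02, Mup11 0.13 and Mup17 0.29, then Mup21 -0.11, then Mup1 -2.31, Mup7 -2.30, Mup11 -1.44, Mup12 -1.34 and Mup17 -1.06, then Mup1 0.07 and Mup20 -0.04. Equal weights gave, with NAMPT in LKO, Mup3 -0.10, Mup21 -0.14, Mup7 -0.15 and Mup11 -0.20, against WT with NAMPT Mup1 -0.51, Mup7 -0.32 and Mup11 -0.32, with the diet Mup1 0.04 and in the interaction Mup20 -0.03. With NAMPT in LKO, no filter gave Mup3 -0.01, Mup7 -0.04 and Mup11 -0.09, and leaving out libraries of low weight gave Mup3 -0.02 and Mup11 -0.14. The cause was not tested.

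Without single replicates the diet gave Mup3 -0.57 to 0.16, Mup1 -1.32 to 0.81, Mup2 -0.80 to 0.35, Mup7 -2.22 to 0.93, Mup10 -0.72 to 0.11, Mup11 -2.60 to 0.21 and Mup12 -1.76 to 0.82. WD LKO EV against WD WT EV gave Mup3 -0.42 to 0.05 and Mup21 -0.12 to 0.27, and WD LKO NAMPT against WD WT NAMPT gave Mup1 -0.28 to 1.32. NAMPT in LKO gave Mup3 -0.16 to 0.30, Mup21 -0.39 to 0.53, Mup7 -0.22 to 0.90 and Mup11 -0.41 to 0.68.

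Deviations of same-numbered libraries correlated between -0.38 and 0.42. Libraries of unlike number were not compared in this way, so whether the numbers pair the libraries is not settled. With a replicate block the call in WD WT NAMPT against WD WT EV was Mup20 (0.73, adjusted p = 0.0134) in place of Mup3 (-0.40, adjusted p = 0.511), and the diet had 6 calls, Mup21, Mup1, Mup2, Mup10, Mup11 and Mup12, all lower, beside 3842 of all genes. The block also gave, in WT, Mup21 0.07, Mup1 1.26 and Mup2 0.11, with NAMPT in LKO Mup3 -0.03 and Mup11 -0.07, in WD LKO EV against WD WT EV Mup3 0.44, Mup1 0.14, Mup2 0.76, Mup7 0.21, Mup10 0.12, Mup11 0.85 and Mup17 0.33, against WT with NAMPT Mup1 -0.86, and in the interaction Mup20 -0.34, Mup21 -0.05, Mup1 -1.01 and Mup11 -0.03.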
